A study of Homo sapiens with 9 samples.

Results

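The 10 regulators of the integrated stress response described here were followed through RNA-seq libraries of the human esophageal squamous carcinoma line TE13. They were picked by gene symbol, with earlier results of these data known, and comprised the transcription factors ATF4, DDIT3, ATF3, CEBPB and NUPR1, the feedback regulators PPP1R15A and TRIB3, and the effectors CHAC1, SESN2 and DDIT4. These were 10 of the 60605 genes in the deposited table, and 10 of 10 passed the level filter that left 21395 genes for testing. In the integrated stress response, kinases that sense amino acid shortage, misfolded protein in the endoplasmic reticulum, double-stranded RNA or heme shortage phosphorylate the translation initiation factor eIF2. General protein synthesis then falls, while translation of the ATF4 mRNA rises, so that ATF4 protein switches on genes for amino acid supply, stress regulators and, in prolonged stress, cell death. Much of the control of ATF4 acts on translation, which mRNA levels do not show.

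The conditions were transfection of TE13 cells with control siRNA or with either of the siRNAs against PARylator (siRNA.1 and siRNA.2), each in 3 of the 9 libraries. PARylator is the study's name for the long noncoding RNA LINC00885, and the conditions differed only in the siRNA given, as far as the labels state. All groups came from a single cell line with a single control siRNA, both siRNA groups were set against the same 3 control libraries, and in bulk RNA fewer cells of a type and less RNA per cell cannot be told apart. The p-values measure the spread between these libraries, which the study's design describes as biological replicates.

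LINC00885 itself was covered by few reads: 6, 7 and 12 counts in the control libraries, 4, 5 and 2 with siRNA.1, and 2, 0 and 4 with siRNA.2, where a count of 0 allows up to 3. The log2 fold changes of -1.21 ± 0.95 (SE) for siRNA.1 and -2.33 ± 1.01 for siRNA.2 both missed the threshold of edgeR's quasi-likelihood test (adjusted p = 0.376 and 0.0659), so the deposited counts did not establish a reduction of the target. Its FPKM ranges were 0.17 to 0.29 in the control libraries, 0.05 to 0.14 for siRNA.1 and 0 to 0.08 for siRNA.2. The siRNA ranges thus lay below the control range. By qPCR the paper reports knockdown of PARylator by siRNA in TE13 cells. Libraries held 15337917 to 17899074 gene counts in the control group, 15374616 to 17762752 for siRNA.1 and 19213164 to 22559998 for siRNA.2. Mitochondrially encoded genes took 7.46 to 7.66% of counts in the control libraries, 4.99 to 5.06% for siRNA.1 and 5.54 to 5.56% for siRNA.2. Of 10 squamous epithelial markers all were detected, and their summed level was 677 to 691 FPKM (fragments per kilobase of exon, scaled to library size) in the control libraries, 588 to 615 for siRNA.1 and 581 to 600 for siRNA.2. Within that sum single markers moved in opposite directions, 3 higher and 6 lower with each siRNA, where 15.0% of all genes tested were higher and 15.2% lower with siRNA.1 and 15.8 and 15.1% with siRNA.2. The basal keratin KRT5 fell from 142 FPKM to 40.0 for siRNA.1 and 55.8 for siRNA.2, the squamous lineage factor SOX2 from 11.7 to 3.30 and 6.42, and the desmosomal cadherin DSC3 from 15.7 to 11.9 and 10.96, while the keratin KRT6A rose from 78.7 to 102 and 118 (edgeR, adjusted p at most 5.88e-13). Of 10 markers of blood, fibroblast and endothelial cells, 5 passed the level filter, and with each siRNA LYZ was called higher and VWF and COL1A1 lower. PTPRC was also called higher by edgeR with both, but at 0.0333 FPKM in control cells and 0.153 and 0.147 for the siRNAs it passed the filter only through the siRNA libraries, and by limma on log2(FPKM + 0.1) it was not called (adjusted p = 0.109 and 0.115). CD3E, CD79A and DCN stood at a mean of at most 0.0867 FPKM in any group. The summed level of those 10 was 2.76 to 3.36 FPKM in the control libraries, 4.66 to 5.02 for siRNA.1 and 4.68 to 5.64 for siRNA.2. The part of these shifts in the results below was not tested.

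ATF4 binds DNA together with C/EBP proteins at the C/EBP-ATF response element, so the sequence before the start of each regulator was searched for its core. RefSeq promoter entries matched 9 of the 10 regulators, NUPR1 being the exception, and windows from 1000 bases before to 50 bases after each RefSeq start were read from GRCh38 on both strands. The letters TGATGNAA stood in the windows of 6 of 9 matched regulators, and in those of 15.6% of the 27305 genes with an entry. The stricter form TGATGCAA, a subset of the former, stood in 4 of 9 and in 3.1% of genes. The 6 sequences are shown because they place the same core at different distances from the start in genes with different responses. Each is written along the gene's own strand, with the core, in either orientation, in capitals.
TRIB3, chr20:380881-380910, + strand: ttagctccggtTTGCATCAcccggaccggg
CHAC1, chr15:40953251-40953280, + strand: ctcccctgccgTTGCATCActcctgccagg
DDIT3, chr12:57520802-57520831, - strand: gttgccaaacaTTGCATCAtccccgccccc
DDIT4, chr10:72272967-72272996, + strand: gtcctcggtccTGATGCAAccgtctggatc
ATF3, chr1:212565205-212565234, + strand: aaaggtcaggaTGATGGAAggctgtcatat
SESN2, chr1:28259211-28259240, + strand: gtgaagtccctTTTCATCAcgcaaccctaa

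In TRIB3 the printed stretch occurred 3 times without a change of letter, with the cores 33 bases apart, the other copies lying at chr20:380914-380943 and chr20:380947-380976. By GENCODE release 44 the TRIB3 copies and the CHAC1 core overlapped an exon of some transcript of the gene, the DDIT3 core lay in an intron, and those of DDIT4, ATF3 and SESN2 lay upstream of the gene. The full cyclic AMP response element TGACGTCA, a palindrome bound by ATF and CREB proteins, stood in 2 of 9 matched regulators and in 3.02% of genes.
ATF3, chr1:212614510-212614539, + strand: tagtttcagctTGACGTCAagcctctttga
PPP1R15A, chr19:48872352-48872381, + strand: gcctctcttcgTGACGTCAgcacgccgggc

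The ATF3 match lay in an intron before an inner start of the gene, and that of PPP1R15A overlapped an exon. No match to these letters was found in the windows of ATF4 and CEBPB. The motifs and the window length were settled after the sequences had been looked at, and a match describes the sequence and is not a measured binding site.

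**Figure D1:**
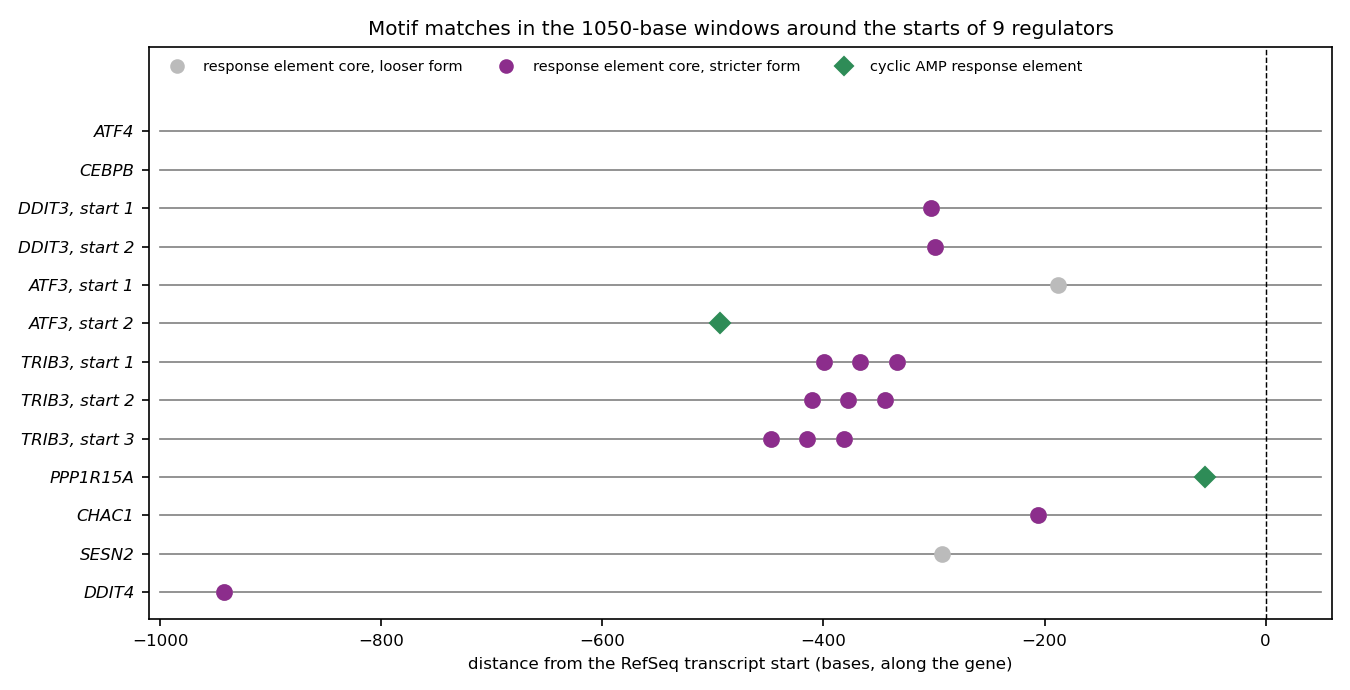
Positions of motif matches (points) along the windows from 1000 bases before to 50 bases after RefSeq transcript starts of 9 regulators, in bases along the gene, with the dashed line at the start. A line is drawn for each start with a match, or a single line for a gene with none; TRIB3 carries 3 copies of the core at each of its 3 starts, and DDIT4 has its match farthest upstream, at -946.

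The 10 regulators were present at levels from 0.177 FPKM for NUPR1 to 154 FPKM for ATF4 in control cells (means of 3). Their summed level was 376 ± 17.8 FPKM (SD, n = 3) in control cells, 496 ± 8.05 for siRNA.1 and 499.8 ± 18.1 for siRNA.2, of which ATF4 alone made up 41.0, 37.7 and 39.9%. In control cells the order was ATF4, DDIT4, CEBPB, PPP1R15A, TRIB3, CHAC1, SESN2, DDIT3, ATF3 and NUPR1. Neighbours in that order had separate ranges except SESN2 and DDIT3, and DDIT3 and ATF3, whose ranges overlapped. With either siRNA, SESN2 stood below DDIT3 and ATF3, with ranges apart. Within the control group, replicate 3 held the highest value for 7 of 10 regulators and replicate 1 the lowest for 7 of 10, and within the siRNA.2 group replicate 2 was highest for 7 and replicate 1 lowest for 7.

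With siRNA.1, 9 of 10 regulators passed the test as higher, against 15.0% of all genes tested that were higher, and 0 passed as lower, against 15.2% lower. With siRNA.2 it was again 9 of 10 higher and 0 lower, against backgrounds of 15.8% and 15.1%. Higher with both siRNAs were 8 of 10, against 11.1% of all genes. The median log2 fold change over the 10 was 0.82 for siRNA.1 and 0.62 for siRNA.2, where the medians over all genes tested were -0.0006 and 0.004. All siRNA.1 libraries lay above all control libraries for 10 of 10 regulators (20.7% of all genes), and all siRNA.2 libraries for 9 of 10 (21.1% of all genes), CEBPB being the exception. All 6 siRNA libraries lay above all 3 controls for those same 9 (14.3% of all genes). Both comparisons share the 3 control libraries and are not independent of each other.

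**Figure D2:**
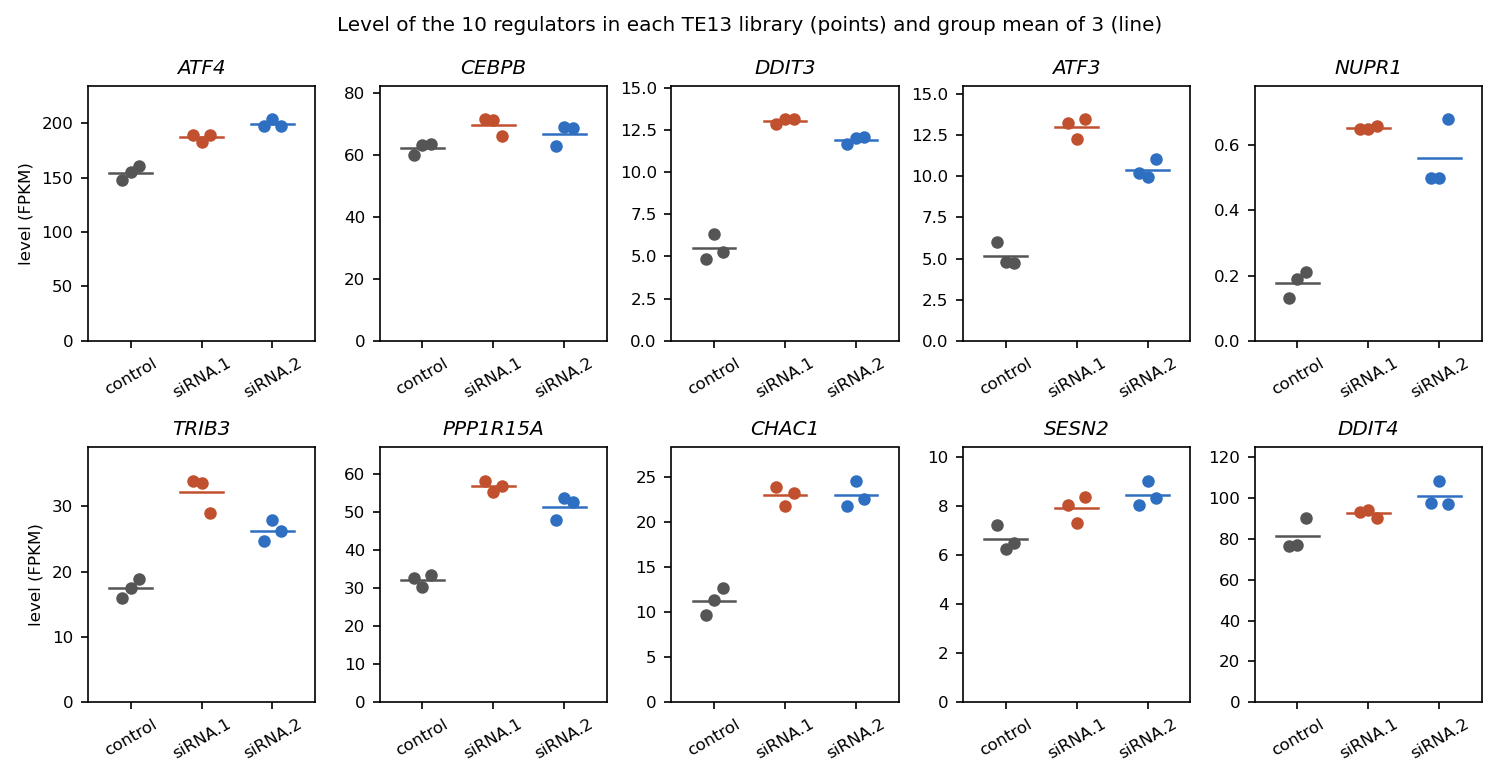
Level in FPKM of each regulator in each library (points; 3 per group) with the group mean (line), each panel with its own axis from 0. The siRNA points sit above all control points in every panel except CEBPB, where siRNA.2 replicate 1 at 62.87 FPKM lies within the control range, while DDIT4 in siRNA.1 replicate 3, at 90.24 FPKM, is only just above control replicate 3 at 90.21.

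ATF4, the transcription factor at the centre of the response (chr22:39519695-39522683, + strand, in GRCh38 as for all positions), was at 148.11, 154.97 and 160.34 FPKM in the control libraries, 189.23, 182.58 and 189.25 with siRNA.1, and 197.80, 203.71 and 197.37 with siRNA.2. All 6 siRNA libraries lay above the controls, and every siRNA.2 library lay above every siRNA.1 library. The rise was modest, with a log2 fold change of 0.25 ± 0.04 (SE) with siRNA.1 and 0.36 ± 0.04 with siRNA.2 (edgeR, adjusted p = 5.45e-09 and 3.89e-18). Of all genes tested, 29.0% and 22.3% had a higher fold change than ATF4. In FPKM the gain of ATF4 was the greatest among the 10, at 32.5 for siRNA.1 and 45.2 for siRNA.2.

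DDIT3, also called CHOP, a C/EBP-family factor induced through ATF4 and linked to cell death in sustained stress (chr12:57516588-57521737, - strand), was at 4.84, 6.33 and 5.26 FPKM in control cells, 12.84, 13.14 and 13.15 with siRNA.1, and 11.67, 12.03 and 12.11 with siRNA.2. The siRNA libraries lay far above the controls and close to each other. The log2 fold change was 1.22 ± 0.13 for siRNA.1 and 1.11 ± 0.13 for siRNA.2 (edgeR, adjusted p = 1.29e-18 and 9.55e-16). Of the 1307 exonic bases of DDIT3, 355 (27.2%) lie within exons of MARS1, the methionine tRNA synthetase, on the opposite strand, and 58 within MBD6, also opposite. A further protein-coding gene without a symbol, on the same strand, shares 8.03% of these bases and had 0 counts in every library. MARS1, at 36.9 FPKM in control cells, also rose, by 0.47 with siRNA.1 and 0.39 with siRNA.2 on the log2 scale (edgeR, adjusted p = 1.6e-26 and 2.33e-18). Whether the counting used strand is not given in the sources used here, so DDIT3 values are uncertain in the stretches shared with the opposite strand, and in the same-strand stretch whatever the strand setting.

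ATF3, a stress-induced ATF/CREB-family factor that often acts as a repressor (chr1:212565334-212620777, + strand), was at 6.02, 4.80 and 4.70 FPKM in the control libraries, 13.24, 12.25 and 13.48 with siRNA.1, and 10.21, 9.96 and 11.07 with siRNA.2. The 3 groups did not overlap, siRNA.1 being highest. The log2 fold change was 1.31 ± 0.08 for siRNA.1 and 1.00 ± 0.08 for siRNA.2 (edgeR, adjusted p = 1.06e-52 and 3.73e-31).

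NUPR1, a small chromatin-associated stress protein (chr16:28532708-28539008, - strand), was barely expressed, at 0.13, 0.19 and 0.21 FPKM in control cells, 0.65, 0.65 and 0.66 with siRNA.1, and 0.50, 0.50 and 0.68 with siRNA.2. These levels correspond to 11, 16 and 21 counts, 64, 55 and 63 counts, and 54, 53 and 85 counts. The groups of siRNA libraries lay above the controls, and NUPR1 had the largest fold change of the 10, 1.84 ± 0.31 and 1.64 ± 0.31 on the log2 scale (edgeR, adjusted p = 3.13e-08 and 9.36e-07). On a scale that damps low values, log2(FPKM + 1), the change was 0.49 for siRNA.1 and 0.41 for siRNA.2. In GENCODE release 44 NUPR1 shares 909 of its 5508 exonic bases with a noncoding gene on the same strand.

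CEBPB, which dimerizes with ATF4 and other bZIP factors (chr20:50190830-50192668, + strand), differed least. It was at 59.99, 63.21 and 63.65 FPKM in control cells, 71.51, 71.16 and 66.18 with siRNA.1, and 62.87, 69.03 and 68.72 with siRNA.2. With siRNA.1 the libraries were above the controls and the log2 fold change was 0.13 ± 0.05 (edgeR, adjusted p = 0.0434). That call was lost in 9 of the 18 other analyses run. When 1 library was left out, it held without siRNA.1 replicate 3 or siRNA.2 replicate 1. It was lost without control replicate 1 (adjusted p = 0.18 by edgeR), 2 (0.0618) or 3 (0.0516), siRNA.1 replicate 1 (0.168) or 2 (0.0937), or siRNA.2 replicate 2 (0.0504) or 3 (0.0537). With siRNA.2 the ranges overlapped and the log2 fold change of 0.09 (95% interval -0.01 to 0.20) did not pass the test (edgeR, adjusted p = 0.197), although it did without siRNA.2 replicate 1 (0.15, adjusted p = 0.0403 by edgeR). CEBPB shares 231 of its 1839 exonic bases with the antisense transcript CEBPB-AS1, which had 4 to 29 counts per library.

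PPP1R15A, also called GADD34, the inducible subunit that directs protein phosphatase 1 to eIF2 and so ends the response (chr19:48872421-48876058, + strand), was at 32.61, 30.41 and 33.43 FPKM in control cells, 58.23, 55.37 and 56.73 with siRNA.1, and 47.81, 53.78 and 52.60 with siRNA.2. All siRNA libraries were well above the controls, and every siRNA.1 library exceeded every siRNA.2 library. The log2 fold change was 0.79 ± 0.05 for siRNA.1 and 0.67 ± 0.05 for siRNA.2 (edgeR, adjusted p = 8.68e-51 and 3.23e-36). TRIB3, a pseudokinase that binds ATF4 and DDIT3 and restrains them (chr20:362835-397559, + strand), was at 15.91, 17.50 and 18.91 FPKM in control cells, 33.94, 33.66 and 29.03 with siRNA.1, and 24.63, 27.91 and 26.28 with siRNA.2. Here too the 3 groups did not overlap, with siRNA.1 highest. Its log2 fold change was 0.85 ± 0.06 for siRNA.1 and 0.58 ± 0.06 for siRNA.2 (edgeR, adjusted p = 3.02e-43 and 4.8e-20).

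Among the effectors, CHAC1, which degrades glutathione (chr15:40952962-40956512, + strand), was at 9.70, 11.39 and 12.72 FPKM in control cells, 23.96, 21.85 and 23.29 with siRNA.1, and 21.87, 24.64 and 22.65 with siRNA.2. Every siRNA library was above every control library, and the siRNA groups overlapped each other. The log2 fold change was 1.00 ± 0.08 for siRNA.1 and 1.02 ± 0.08 for siRNA.2 (edgeR, adjusted p = 7.93e-32 and 1.18e-33). SESN2 and DDIT4, which both restrain the growth kinase complex mTORC1, moved less.

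SESN2 (chr1:28259518-28282491, + strand) was at 7.21, 6.24 and 6.49 FPKM in control cells, 8.03, 7.31 and 8.35 with siRNA.1, and 8.02, 9.02 and 8.30 with siRNA.2. All siRNA libraries were above the controls by a narrow margin, and the log2 fold change passed the test with siRNA.2 (0.33 ± 0.09, edgeR, adjusted p = 0.00169) and missed it with siRNA.1 (0.22, 95% interval 0.04 to 0.41, edgeR, adjusted p = 0.0591). The siRNA.1 value passed in 5 of the 18 other analyses, among them those without control replicate 1 or siRNA.1 replicate 2 (0.29 and 0.28, adjusted p = 0.0283 and 0.0268 by edgeR). DDIT4, also called REDD1 (chr10:72273919-72276036, + strand), was at 76.59, 77.12 and 90.21 FPKM in control cells, 93.40, 93.97 and 90.24 with siRNA.1, and 97.80, 108.52 and 97.30 with siRNA.2. Control replicate 3 stood close to the siRNA.1 libraries. The log2 fold change was 0.16 ± 0.05 for siRNA.1 and 0.30 ± 0.05 for siRNA.2 (edgeR, adjusted p = 0.00423 and 1.57e-09). The siRNA.1 call was lost in 4 of the 18 other analyses, among them those without control replicate 1 or 2 (0.12 in both cases, adjusted p = 0.0794 and 0.0788 by edgeR).

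**Figure D3:**
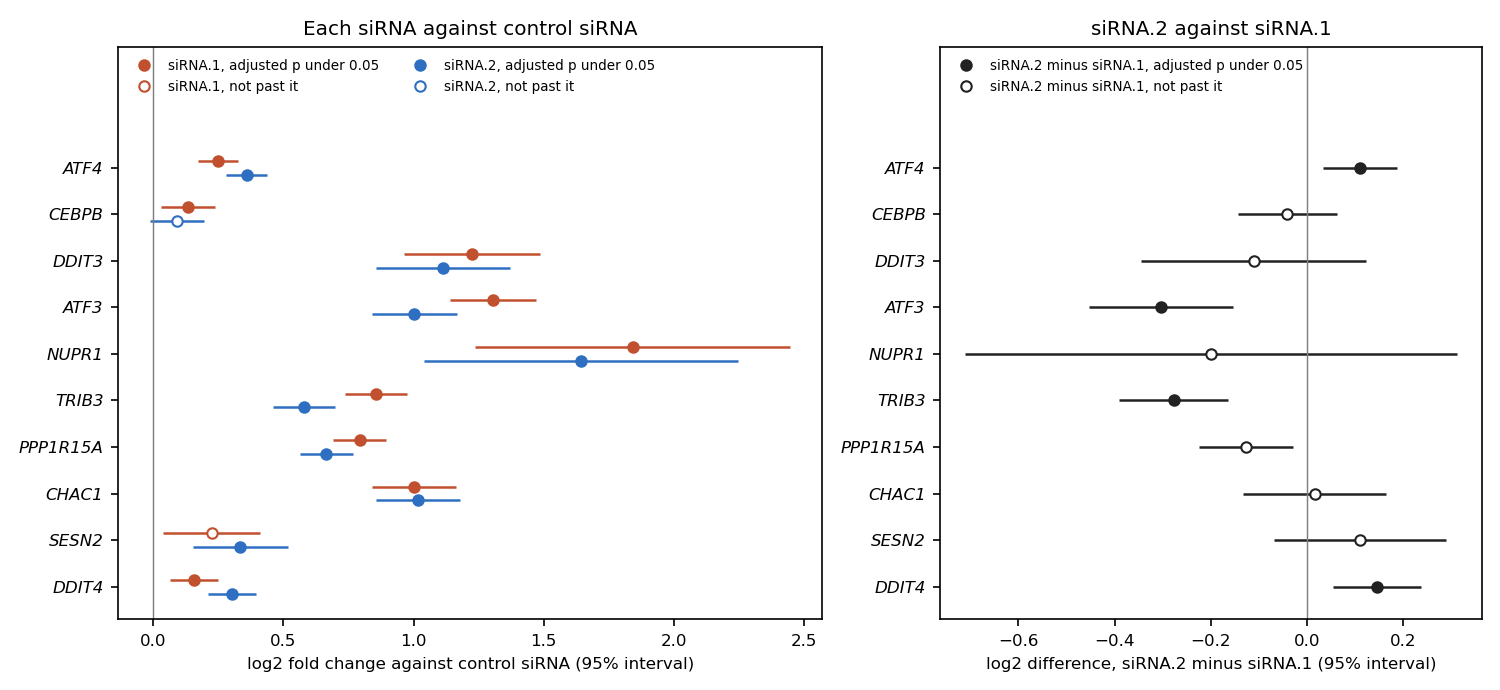
Left, log2 fold change of each regulator against control siRNA with its 95% interval for siRNA.1 (red) and siRNA.2 (blue); right, log2 difference of siRNA.2 minus siRNA.1. Filled points passed an adjusted p of 0.05 (edgeR) and open points did not; CEBPB and SESN2 each have 1 open point at left, and at right ATF3 and TRIB3 lie below 0 while ATF4 and DDIT4 lie above.

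Set directly against each other, the siRNAs differed for 4 of 10 regulators, where 12.2% of all genes differed. ATF4 and DDIT4 were higher with siRNA.2, by 0.11 ± 0.04 and 0.15 ± 0.05 on the log2 scale (edgeR, adjusted p = 0.0436 and 0.0193). ATF3 and TRIB3 were lower with siRNA.2, with differences of -0.30 ± 0.08 and -0.28 ± 0.06 (edgeR, adjusted p = 0.00137 and 5.27e-05). The order of the siRNAs thus was not the same for ATF4 mRNA and for ATF3 and TRIB3 mRNA. The remaining 6 did not pass, with 95% intervals of -0.34 to 0.12 for DDIT3, -0.13 to 0.16 for CHAC1, -0.07 to 0.29 for SESN2, -0.22 to -0.03 for PPP1R15A, -0.14 to 0.06 for CEBPB and -0.71 to 0.31 for NUPR1.

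The ATF4 difference was lost in 10 of the 18 other analyses. Among them were those without control replicate 3 (adjusted p = 0.0508 by edgeR), siRNA.1 replicate 2 (0.196) or 3 (0.083), or siRNA.2 replicate 2 (0.255) or 3 (0.112). The DDIT4 difference was lost in 6 of 18, among them those without siRNA.1 replicate 3 (0.132) or siRNA.2 replicate 2 (0.406). The PPP1R15A difference passed in 4 of 18, among them those without siRNA.1 replicate 2 (-0.15, adjusted p = 0.045 by edgeR) or siRNA.2 replicate 2 (-0.17, 0.0425). By limma on log2(FPKM + 0.1), 0 of the 10 passed between the siRNAs, 4 of them with an unadjusted p under 0.05, and by DESeq2 3 passed.

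Most of the regulators belong to small gene families, and the share of each regulator in the summed FPKM of its family describes whether the family moved as a whole. PPP1R15A made up 44.2 ± 0.74% (SD, n = 3) of the level it shares with PPP1R15B, the constitutive eIF2 phosphatase subunit, in control cells, 63.6 ± 1.27% for siRNA.1 and 62.6 ± 2.93% for siRNA.2. PPP1R15B itself fell, by 0.35 with siRNA.1 and 0.41 with siRNA.2 on the log2 scale (edgeR, adjusted p = 3.73e-12 and 8.03e-17), from 40.6 ± 1.47 FPKM to 32.4 ± 1.04 and 30.7 ± 1.93. The pair thus changed places, PPP1R15B being the higher of the 2 in control cells and PPP1R15A with either siRNA.

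ATF3 rose from 58.0 ± 1.12% of its level with the related repressor JDP2 to 77.8 ± 1.33 and 74.1 ± 1.67%, while JDP2 had log2 fold changes of -0.04 and -0.05 that did not pass the test (edgeR, adjusted p = 0.812 and 0.752). CHAC1 kept a share near its control share of 49.97 ± 3.83%, at 53.7 ± 2.99% for siRNA.1 and 51.4 ± 1.36% for siRNA.2. Its paralog CHAC2, the constitutive glutathione-degrading enzyme, was also higher, by 0.79 and 0.94 on the log2 scale (edgeR, adjusted p = 6.13e-13 and 7.22e-19). ATF5, an ATF4 relative under similar translational control, was higher by 0.76 and 0.78 (edgeR, adjusted p = 3.63e-18 and 1.94e-19), which took the share of ATF4 from 94.8 ± 0.25% to 92.7 ± 0.37 and 93.1 ± 0.31%.

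In the tribbles family TRIB1, which acts on C/EBP proteins, was higher with both siRNAs (0.36 and 0.46, edgeR, adjusted p = 1.05e-05 and 2.63e-09). TRIB2 was higher with siRNA.2 (0.47, adjusted p = 0.000236 by edgeR) and above its siRNA.1 level (0.44, adjusted p = 0.00212 by edgeR). The share of TRIB3 was 58.2 ± 2.05% in control cells, 67.3 ± 2.55% for siRNA.1 and 60.1 ± 0.68% for siRNA.2, where its range overlapped that of the controls.

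Within the sum of CEBPA, CEBPB, CEBPD, CEBPE and CEBPG, CEBPB stayed at 71.9 ± 1.53, 72.6 ± 0.47 and 71.5 ± 0.705%. DDIT3, also of the C/EBP family, was left out of that sum. It rose from 5.48 FPKM to 13.0 and 11.9, so the steady share describes the sum without DDIT3. CEBPG was higher with siRNA.2 (0.18, edgeR, adjusted p = 0.0226) and CEBPA lower with siRNA.2 (-0.59, edgeR, adjusted p = 0.0123). CEBPD did not pass the test with either, and CEBPE was at 0 counts in every library. By edgeR the CEBPG call was lost without control replicate 1 (adjusted p = 0.164) or siRNA.2 replicate 1 (0.0933), and the CEBPA call without control replicate 1 (0.0913). SESN2 made up 82.2 ± 2.21, 87.4 ± 1.53 and 88.6 ± 0.40% of the sestrins; SESN1, a p53 target, was at 1.29 FPKM in control cells and did not pass the test, and SESN3 was under the level filter. DDIT4 and NUPR1 supplied 99.7% or more of their pairs in every library, DDIT4L being at 0.11 to 0.19 FPKM and NUPR2 at 0 counts. In all, 3 of 11 tested paralogs were higher and 1 lower with siRNA.1, and 5 higher and 2 lower with siRNA.2 (1 lower without control replicate 1). Over all genes tested, 15.0% were higher and 15.2% lower with siRNA.1, and 15.8% and 15.1% with siRNA.2.

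**Figure D4:**
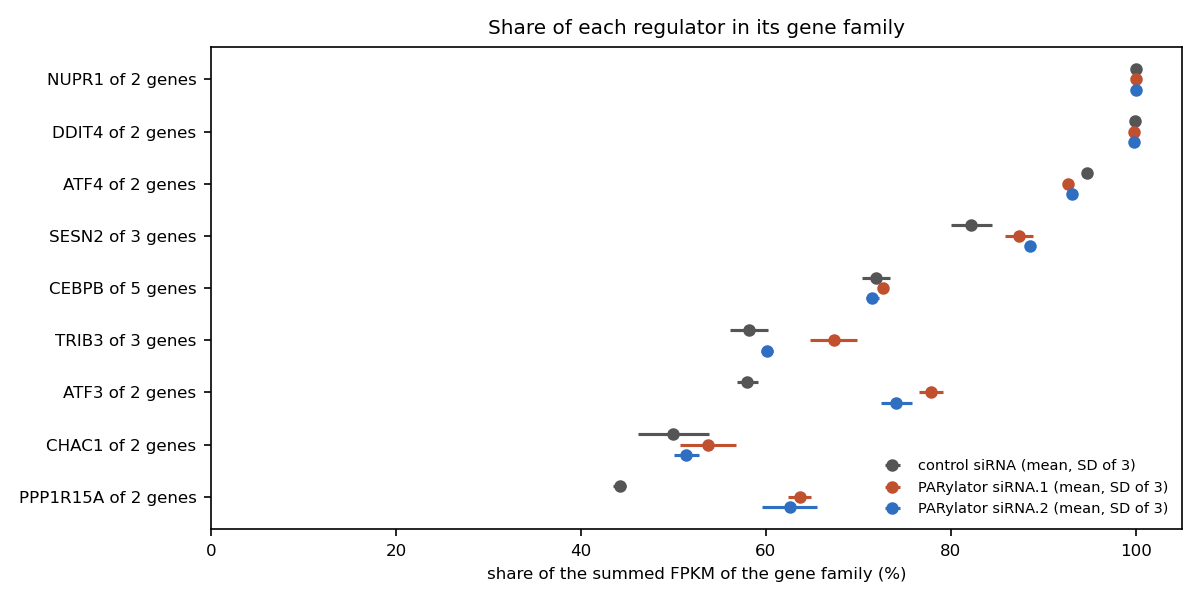
Share of each regulator in the summed FPKM of its gene family, in percent, as the mean and SD of 3 libraries for control siRNA (grey), siRNA.1 (red) and siRNA.2 (blue). PPP1R15A passes from 44.2% to 63.6 and 62.6%, and ATF3 from 58.0% to 77.8 and 74.1%, while CEBPB and CHAC1 stay near their control share. DDIT3 is not counted in the family of CEBPB.

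Upstream of ATF4, a list of the 4 eIF2 kinases and 6 genes that activate or inhibit them held calls in both directions, 2 higher and 3 lower of 10 with siRNA.1 and 3 higher and 2 lower with siRNA.2, against 15.0 and 15.8% higher and 15.2 and 15.1% lower over all genes. EIF2AK2, the kinase PKR that binds double-stranded RNA, was at 27.9 ± 1.32 FPKM in control cells, 32.0 ± 1.26 for siRNA.1 and 33.3 ± 0.76 for siRNA.2, a log2 fold change of 0.17 and 0.24 (edgeR, adjusted p = 0.000432 and 7.25e-08). The other 3 kinases did not pass the test with either siRNA. EIF2AK1 (HRI, sensing heme) was at 61.7 FPKM in control cells with log2 fold changes of -0.10 and -0.09, EIF2AK3 (PERK, sensing misfolded protein) at 1.2 FPKM with 0.10 and -0.16, and EIF2AK4 (GCN2, sensing uncharged tRNA) at 18.2 FPKM with -0.03 and -0.01. EIF2AK1 did pass as lower in 5 of 18 other analyses for siRNA.1 and 4 of 18 for siRNA.2. Among them were DESeq2 (adjusted p = 0.023 and 0.0189), edgeR without control replicate 1 (0.0316 and 0.0479) and, for siRNA.1, edgeR without siRNA.1 replicate 2 (0.034) or siRNA.2 replicate 1 (0.0384). EIF2AK3 passed as lower for siRNA.2 by edgeR without siRNA.2 replicate 1 (-0.29, 0.0338).

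GCN1, which activates GCN2 at the ribosome, was higher with both siRNAs (0.20 and 0.18, edgeR, adjusted p = 6.94e-05 and 0.000292). DELE1, which relays mitochondrial stress to HRI, was lower (-0.49 and -0.55, edgeR, adjusted p = 9.79e-08 and 8.63e-10), as was DNAJC3, an inhibitor of PKR and PERK (-0.35 and -0.29, edgeR, adjusted p = 4.29e-07 and 2.18e-05). The remaining lower call with siRNA.1 was IMPACT, an inhibitor of GCN2 activation named here after its values were seen (-0.38 and -0.03, edgeR, adjusted p = 1.21e-06 and 0.807). With siRNA.2 the lower calls were DELE1 and DNAJC3 only. OMA1, of the same list and also named after its values were seen, was at 2.87 ± 0.18 FPKM in control cells. It stood at 2.95 ± 0.38 for siRNA.1 and 3.86 ± 0.52 for siRNA.2, where all libraries lay above the controls. Kinase activity and eIF2 phosphorylation were not measured by these libraries.

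Of 12 subunits of eIF2, its exchange factor eIF2B and its phosphatases (PPP1R15A aside), 4 were higher and 3 lower with siRNA.1, and 6 higher and 3 lower with siRNA.2. The shares over all genes tested were 15.0% higher and 15.2% lower with siRNA.1, and 15.8% and 15.1% with siRNA.2. Of 5 further initiation factors in that list, named after their values were seen, EIF5 was higher with both siRNAs, while EIF2D and MCTS1 were higher and DENR lower with siRNA.2, the DENR call being lost without control replicate 2 or 3 or any single siRNA.2 library. EIF2B3, an eIF2B subunit, was higher by 0.45 and 0.60 on the log2 scale (edgeR, adjusted p = 0.000101 and 3.84e-08). PPP1CA and PPP1CB, catalytic subunits of protein phosphatase 1, were lower, at -0.39 and -0.24 for PPP1CA (edgeR, adjusted p = 3.02e-17 and 5.49e-07) and -0.21 and -0.37 for PPP1CB (edgeR, adjusted p = 1.29e-05 and 5.37e-15). The other catalytic subunit in the list, PPP1CC, named after its values were seen, was higher (0.18 and 0.25, edgeR, adjusted p = 0.000118 and 2.33e-08). The catalytic subunits thus did not move as a group, while of the targeting subunits PPP1R15A was higher and PPP1R15B lower with either siRNA.

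Beyond the regulators, 38 other targets of ATF4 were listed by function, of which 37 were tested. With siRNA.1 31 were higher and 1 lower, and with siRNA.2 32 were higher and 2 lower, against backgrounds of 15.0 and 15.8% higher and 15.2 and 15.1% lower. Their median log2 fold change was 0.45 and 0.48, below the 10 regulators' median with either siRNA. Over the 18 other analyses run, the higher count was 30 to 31 for siRNA.1 and 30 to 32 for siRNA.2. TGATGNAA stood in the windows of 18 of the 29 of these targets with a RefSeq entry, against 15.6% of all genes with an entry. TGATGCAA stood in 10 of 29, against 3.1%. As the list was made of genes known as ATF4 targets, these counts are not independent of how it was chosen.

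In amino acid synthesis 10 of 13 were higher with siRNA.1 and 11 of 13 with siRNA.2, against 15.0 and 15.8% of all genes tested. PSAT1, of serine synthesis, went from 74.7 ± 6.25 FPKM to 146 ± 3.2 and 181 ± 5.1, a log2 fold change of 0.94 and 1.26, and ASNS, the asparagine synthetase, from 1.12 ± 0.02 to 1.82 ± 0.13 and 2.06 ± 0.12. ALDH1L2, of mitochondrial folate metabolism, rose by 0.93 and 1.08 and GPT2, an alanine aminotransferase, by 0.77 and 1.14 on the log2 scale. Between the siRNAs, 5 of the 13 were higher with siRNA.2 and 0 lower by edgeR, where 6.1 and 6.06% of all genes were. That count was 2 to 5 over the 18 other analyses, with 2 left without siRNA.1 replicate 3 or siRNA.2 replicate 2, 3 without siRNA.2 replicate 3, and 2 by limma.

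All 8 amino acid transporters were higher with both siRNAs, where 11.1% of all genes tested were. SLC7A11, the cystine importer, rose by 0.85 and 0.71, SLC1A5, a glutamine carrier, by 0.62 and 0.55, SLC1A4 by 0.47 and 0.56 and SLC3A2, the chain shared by several transporters, by 0.47 and 0.43 on the log2 scale. All 9 genes of tRNA charging and export were likewise higher with both, among them the tRNA synthetases WARS1 (0.89 and 1.03), AARS1 (0.60 and 0.62), SARS1 (0.47 and 0.55) and GARS1 (0.40 and 0.60). Adjusted p of the genes named in both groups was at most 3.36e-06 by edgeR.

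Signalling and secreted targets were mixed, with 4 of 7 higher with either siRNA, against 15.0% of all genes tested with siRNA.1 and 15.8% with siRNA.2. The stress hormone GDF15 went from 10.8 ± 0.88 FPKM to 29.2 ± 1.4 for siRNA.1 and 21.4 ± 1.8 for siRNA.2, and was lower in the siRNA.2 than in the siRNA.1 libraries (-0.43 ± 0.07, edgeR, adjusted p = 1.96e-07), in the direction of ATF3 and TRIB3. STC2, a secreted glycoprotein, rose by 0.85 and 0.79 and VEGFA, the angiogenic factor, by 0.52 and 0.48 on the log2 scale. NIBAN1 was lower by edgeR (-0.17 and -0.36, adjusted p = 0.0369 and 6.92e-07), the call with siRNA.1 being lost in 8 of 18 other analyses, among them those without control replicate 1 (adjusted p = 0.115) or 3 (0.137) and without siRNA.1 replicate 1 (0.0796) or 2 (0.158).

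Of 5 cell death and oxidase genes linked to DDIT3 or ATF4, 4 were higher with each siRNA, against 15.0% of all genes tested with siRNA.1 and 15.8% with siRNA.2. The gene not called was BBC3 (PUMA), a BH3-only death protein named after its values were seen, at 2.59 ± 0.27 FPKM in control cells, 2.75 ± 0.89 for siRNA.1 and 2.56 ± 0.21 for siRNA.2, with log2 fold changes of 0.06 (95% interval -0.25 to 0.36) and -0.03 (-0.33 to 0.27; edgeR, adjusted p = 0.841 and 0.934). PMAIP1 (NOXA), a BH3-only death protein, rose from 26.0 ± 1.17 FPKM to 39.0 ± 1.99 and 44.6 ± 0.62, and BCL2L11 (BIM) from 3.52 ± 0.28 to 5.46 ± 0.30 and 4.38 ± 0.28. ERO1A, an oxidase of the endoplasmic reticulum, rose by 0.31 and 0.36 and TNFRSF10B, a death receptor, by 0.25 and 0.12 on the log2 scale (edgeR, adjusted p at most 0.0291). The TNFRSF10B call with siRNA.2 was lost in 7 of 18 other analyses. Among them were those without control replicate 2 (adjusted p = 0.0806 by edgeR) or 3 (0.16) or siRNA.2 replicate 2 (0.455). PMAIP1 was higher and BCL2L11 lower in the siRNA.2 than in the siRNA.1 libraries (0.21 and -0.30, edgeR, adjusted p = 0.00517 and 0.00678).

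The chaperones and the ATF6 and IRE1 arms of the response to misfolded protein, which run beside the PERK arm, differed between the siRNAs. With siRNA.1 2 of 17 were higher and 5 lower, and with siRNA.2 10 were higher and 3 lower. Against control, 15.0% of all genes tested were higher and 15.2% lower with siRNA.1, and 15.8% and 15.1% with siRNA.2. Set against each other, 9 of 17 were higher and 3 lower in the siRNA.2 libraries, where 6.1 and 6.06% of all genes were. HSP90B1, the chaperone GRP94, was at 100.47 ± 2.27 FPKM in control cells, 96.7 ± 0.97 for siRNA.1 and 126 ± 1.93 for siRNA.2, and passed in opposite directions (-0.08 and 0.32, edgeR, adjusted p = 0.0396 and 4.68e-21). So did CRELD2 (-0.25 and 0.41) and MANF (-0.17 and 0.30), both secreted or retained proteins of this compartment.

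DNAJB9, a target of IRE1 and XBP1, was lower in the siRNA.2 than in the siRNA.1 libraries (-0.72 ± 0.12, edgeR, adjusted p = 4.2e-07). Against control it was lower with siRNA.2 (-0.85, edgeR, adjusted p = 7.74e-11) and did not pass with siRNA.1 (-0.14, edgeR, adjusted p = 0.433). HSPA5 (BiP), the master chaperone, named here after its values were seen, had a log2 fold change of 0.05 with siRNA.1 and 0.46 with siRNA.2 (edgeR, adjusted p = 0.234 and 7.21e-43). The sensor ATF6 (0.49 and 0.38) and the IRE1 substrate XBP1 (0.27 and 0.31) were higher with both. The lower calls with siRNA.1 in this list numbered 1 to 5 over the 18 other analyses, with 2 left without control replicate 2 or siRNA.1 replicate 3, 3 without siRNA.1 replicate 2 and 1 without control replicate 3. Without the same libraries HSP90B1 (adjusted p = 0.0634 to 0.151 by edgeR) and MANF (0.085 to 0.238) lost their lower calls, and CRELD2 lost its call without control replicate 3 (0.0598). Over all 18 other analyses HSP90B1 and MANF each lost the lower call with siRNA.1 in 8.

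Downstream of DDIT4 and SESN2, 3 of 15 mTORC1 regulators were higher and 2 lower with siRNA.1, and 4 higher and 1 lower with siRNA.2, shares near the 15.0 and 15.8% higher and 15.2 and 15.1% lower of all genes. Those higher with both were MIOS (0.34 and 0.34), RPTOR (0.28 and 0.39) and SEC13 (0.17 and 0.31), components of the nutrient-sensing machinery or of mTORC1 itself. The SEC13 call with siRNA.1 was lost in 6 of 18 other analyses. Among them were those without control replicate 3 (adjusted p = 0.375 by edgeR) or siRNA.1 replicate 1 (0.104) or 3 (0.121). Of the 2 lower calls with siRNA.1, 0 were left without control replicate 1 or siRNA.1 replicate 1 and 1 without control replicate 2 or siRNA.1 replicate 3. The list's medians, -0.03 and 0.06, lay close to those of all genes.

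Several of the regulators can also be induced through p53 or by the signals that induce immediate early genes. Of 12 p53 targets 3 were higher and 6 lower with siRNA.1, and 2 higher and 6 lower with siRNA.2, with medians of -0.25 and -0.27. A single higher call was left with siRNA.2 without control replicate 3, siRNA.2 replicate 2 or siRNA.2 replicate 3. ZMAT3 (-0.79 and -0.84), DDB2 (-0.64 and -0.51) and RRM2B (-0.52 and -0.41) were lower and AEN was higher (0.57 and 0.73) with both. Of 10 immediate early genes 6 were higher and 3 lower with siRNA.1, and 6 higher and 4 lower with siRNA.2. For both lists the shares over all genes tested were 15.0% higher and 15.2% lower with siRNA.1, and 15.8% and 15.1% with siRNA.2. DUSP1, a phosphatase of MAP kinases, went from 3.13 ± 0.54 FPKM to 10.8 ± 0.92 for siRNA.1 and 6.26 ± 0.74 for siRNA.2, and was lower in the siRNA.2 than in the siRNA.1 libraries (-0.76 ± 0.12, edgeR, adjusted p = 9.9e-09). FOS (1.55 and 1.37), FOSB (1.24 and 1.27) and KLF6 (0.70 and 0.88) were higher with both (edgeR, adjusted p at most 1.23e-06). FOS and FOSB were low in control cells, at 0.47 and 0.58 FPKM. The lower calls included EGR1, named after its values were seen (-0.96 and -0.60, edgeR, adjusted p = 1.23e-25 and 2.35e-11). JUNB, named likewise, went from 99.5 ± 2.81 FPKM in control cells to 81.3 ± 6.59 for siRNA.1 and 74.2 ± 2.79 for siRNA.2.

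**Figure D5:**
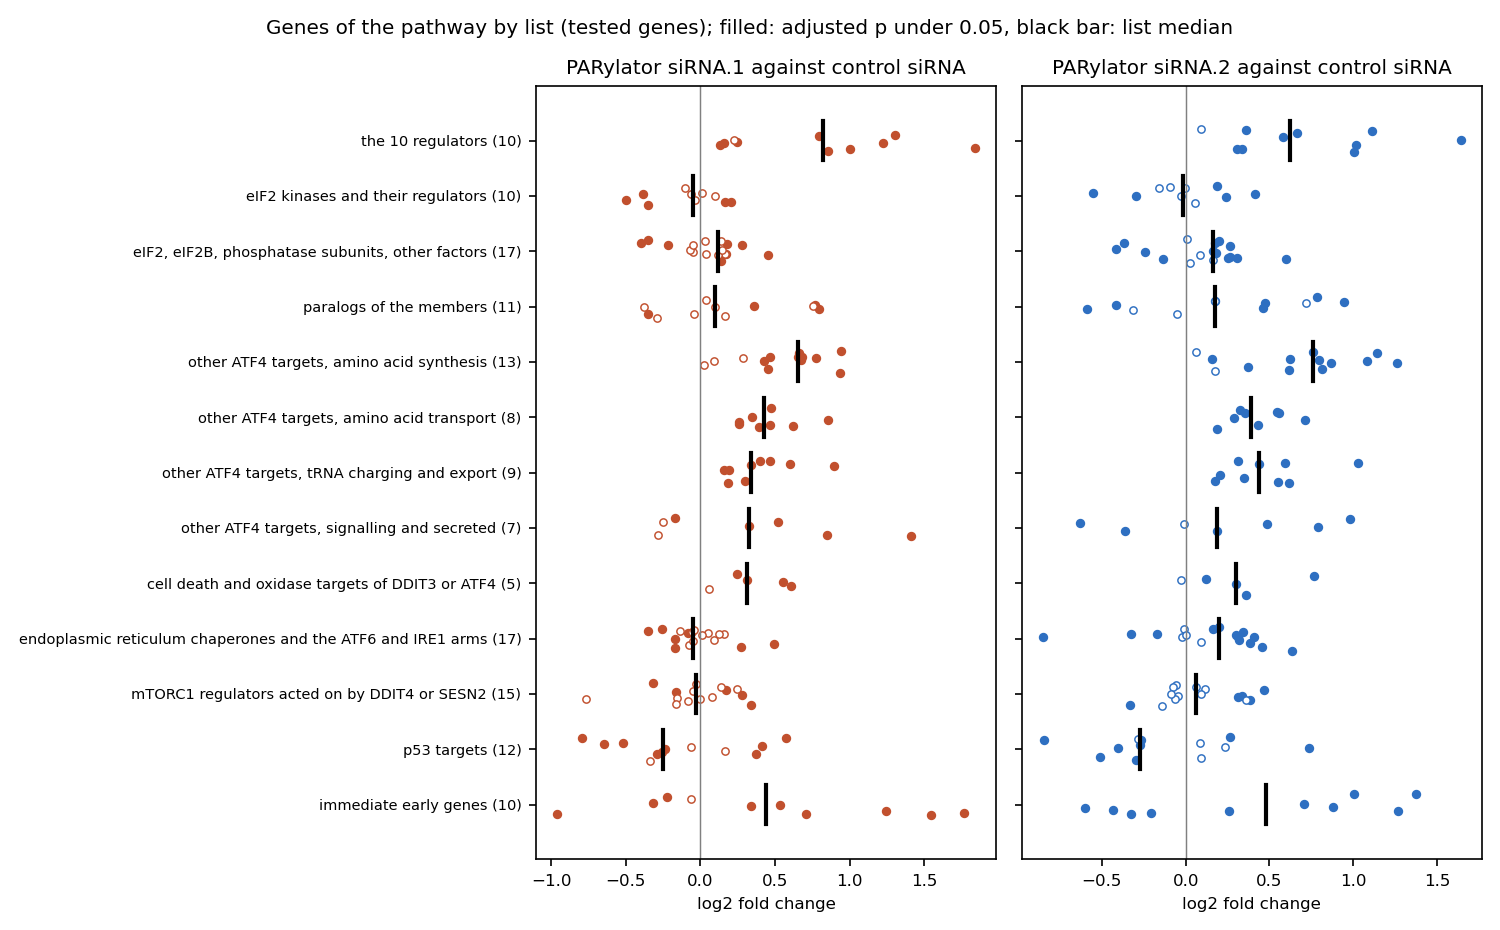
Log2 fold change of every tested gene of each list with siRNA.1 (left) and siRNA.2 (right) against control siRNA; filled points passed an adjusted p of 0.05 (edgeR), open points did not, black bars are list medians and the number of tested genes is in brackets. The medians of the 10 regulators, 0.82 and 0.62, lie right of those of the eIF2 kinase list, -0.05 and -0.02, and of the p53 targets, -0.25 and -0.27.

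The genes most like DDIT3 over the 9 libraries were ranked by the root mean square difference of their log2 counts scaled to library size, each centred on its control mean, among the 11850 named genes that averaged 1 FPKM or more. The 5 nearest were HERC5 (0.068), DLC1 (0.0859), FAM216A (0.101), SLC30A1 (0.103) and PODXL2 (0.104). HERC5, a ubiquitin-like protein ligase, was at 8.35 FPKM in control cells, 20.9 for siRNA.1 and 18.3 for siRNA.2. Of the other regulators CHAC1 (0.174) and ATF3 (0.194) were nearest to DDIT3 and CEBPB (0.865) farthest. The 11850 ranked genes all lay outside the 10, so closer profiles among so many say little about the regulators.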

How the data were processed

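Per the labels and the study's methods, poly(A)+ RNA was sequenced on an Illumina instrument, and the authors used STAR for alignment to GRCh38 and featureCounts for gene-level counting; versions and strand setting are not given in the sources used here. The deposited table holds raw counts per gene and FPKM values made by the authors from the counts and exonic lengths. All 9 libraries were mapped by title; 0 per-library columns were left unused, and columns of gene annotation were used for names, lengths and positions only.

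Counts were tested with edgeR 4.0.16 in R 4.3.3 (TMM factors, quasi-likelihood F test, all 3 groups in 1 fit) on the 21395 genes averaging 0.1 FPKM or more, p-values being adjusted by Benjamini-Hochberg over all of them, with a threshold of 0.05. Levels are FPKM; fold changes are from the counts. DESeq2 1.42.0 and limma 3.58.1 on log2(FPKM + 0.1) or log2(FPKM + 1) were alternatives, beside other size factors, filters, a replicate block, fits of the compared groups only and leaving out each library. The scripts were tested on simulated counts. Intervals are 95%.

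The 10 genes and all lists were chosen with earlier results of these data known. Named from each list are the 4 genes with the largest mean change among those called alike with both siRNAs, those called in opposite directions or differing between siRNAs by at least 0.5, all eIF2 kinases and all paralogs; a gene outside this rule is said to be so where it is named. The lists hold genes from general knowledge of the pathway. Gene identifiers were matched to GENCODE release 44 (60463 of 60605 found, 93.8% with the same start and end), and sequences come from RefSeq starts (GRCh38) and the GRCh38 genome.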

Additional observations from a re-analysis of the deposited data

Results flagged for a closer look

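The siRNAs, given against the same control, differed from each other by edgeR's test for 4 of the 10 regulators, as log2 differences of siRNA.2 minus siRNA.1: 0.11 for ATF4, 0.15 for DDIT4, -0.30 for ATF3 and -0.28 for TRIB3. They also differed for HSP90B1 (0.40), CRELD2 (0.67) and MANF (0.47), which passed in opposite directions against control siRNA, and for DNAJB9 (-0.72), DUSP1 (-0.76) and the squamous marker SOX2 (0.97). LINC00885 was covered by 0 to 12 counts per library, and the part of its remaining level in these differences was not tested.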

How the results depend on the processing

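Each result was recomputed under 18 other analyses. When 1 library was left out, 7 to 9 regulators were called higher for siRNA.1, 9 to 10 for siRNA.2, and 2 to 4 were called between the siRNAs, with 2 left without siRNA.1 replicate 3. By limma on log2(FPKM + 0.1) and on log2(FPKM + 1), 0 of 10 were called between the siRNAs, against 4 by edgeR, although 4 had an unadjusted p under 0.05 with either; over all genes limma called 1437 and 1414, against 2603 by edgeR. Of the recomputed log2 fold changes of the regulators, 491 kept direction and call, 33 lost the call, 10 gained it and 3 changed sign, none of them called: CHAC1 between the siRNAs (-0.0261 without siRNA.1 replicate 2, -0.0397 without siRNA.2 replicate 2; range over left-out libraries -0.0397 to 0.0631) and CEBPB between the siRNAs (0.0125 without siRNA.2 replicate 1; range -0.0751 to 0.0125). Among other named genes those that changed sign were also not called: EIF2AK4 with siRNA.2 (0.0044 with genes of 1 count or more, 0.0054 and 0.0051 by limma, -0.0264 to 0.022 without single libraries, positive at 0.0045 without control replicate 2 and 0.022 without siRNA.2 replicate 1), JDP2 without control replicate 1 (0.0542 for siRNA.1, range -0.1078 to 0.0542; 0.0434 for siRNA.2), TRIB2 with siRNA.1 (-0.0327 without control replicate 2, range to 0.1155) and BBC3 (-0.1685 to 0.2987 for siRNA.1 and -0.1114 to 0.0313 for siRNA.2 without single libraries). ATF4, DDIT3, ATF3, TRIB3, CHAC1, PPP1R15A and NUPR1 kept direction and call against control with both siRNAs in all analyses that held them, NUPR1 being left out of the fit of genes of at least 1 FPKM. Same-numbered libraries did not deviate together (correlations -0.12 to 0.049), so the numbers were not taken as pairs; with the replicate number as a block, 8, 9 and 3 regulators were called in the 3 comparisons, CEBPB with siRNA.1 and ATF4 between the siRNAs losing their calls. The cause of these shifts was not tested. Depth limits LINC00885 and NUPR1, at 0 to 12 and 11 to 85 counts per library.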
